A study of Homo sapiens with 8 samples.

Results

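Cholesterol handling was followed through 30 genes in BE(2)-M17, a human neuroblastoma cell line, with and without interferon-γ (IFN-γ, a cytokine of T cells and natural killer cells). The genes were chosen by symbol, with earlier results of these data known. They are 19 enzymes of cholesterol synthesis, 5 regulators of the SREBP transcription factors, 3 sterol transfer proteins, 2 exporters and the oxysterol enzyme CH25H. All 30 symbols were present among the 26372 of the table. 4 libraries came from cells given IFN-γ at 10 ng/ml for 24 h and 4 from untreated cells, all labelled M17 and grown in medium with fetal bovine serum. Values are FPKM, fragment counts scaled to transcript length and to a library size, so levels of different genes can be compared per length. How the library size was set is not named. Whether the 4 libraries of each group are separate cultures is not stated, so p-values cover only the spread among libraries, and that spread may be technical.

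Cells make cholesterol from acetyl-CoA through mevalonate, squalene and lanosterol, and also take it up from lipoproteins through endosomes. The transcription factors SREBP-2 and SREBP-1 drive the genes of synthesis and uptake: SCAP escorts them out of the endoplasmic reticulum when sterols are low, and INSIG proteins hold SCAP back when sterols are high. Oxysterols, made when sterols are plentiful, engage INSIG and activate the nuclear receptors LXR, which drive the exporters ABCA1 and ABCG1. In the adult brain most cholesterol is made locally, because lipoproteins of the blood do not cross the blood-brain barrier.

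The libraries fitted their labels. The interferon-induced transcription factor IRF1 was at 125, 123, 125 and 128 FPKM with IFN-γ and at 0.569, 0.596, 0.538 and 0.633 FPKM in untreated cells. Of 8 noradrenergic neuroblastoma markers, 7 averaged at least 0.5 FPKM. Markers of leukocytes, endothelium and hepatocytes stayed at or below 0.526 FPKM, and CD3E, a T cell marker, was listed at 0 in all 8 libraries. Of 6 fibroblast markers, 4 averaged at least 0.5 FPKM, DCN with the highest value at 177 FPKM and COL1A2 below 0.1 FPKM throughout. LUM and PDGFRB were higher and COL1A1 lower with IFN-γ. The summed level of the fibroblast list was 184 to 239 FPKM with IFN-γ and 166 to 176 FPKM untreated, and its part in the results was not tested. Per library, roughly 13.9 M to 20.2 M fragments lay behind the values, as read from the spacing of low FPKM. The target in the sample records was 100 M reads, and the difference was not examined. IFN-γ replicate 4 stood apart. Against the other IFN-γ libraries its variance was 4.26 to 4.74 times the counting variance, compared with 1.65 to 2.42 times in the other pairs of a group.

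With IFN-γ, 11 of 19 enzymes of cholesterol synthesis rose modestly, and the sterol exporters ABCG1 and ABCA1 were lower. Of the 28 genes high enough to be tested, 13 rose and 2 fell at an adjusted p of 0.05 (limma on log2(FPKM + 0.1), Benjamini-Hochberg over all 13598 genes tested). These are 46.4% and 7.14% of the tested genes of the set, where 13.3% of all genes tested rose and 9.05% fell. The median level was 19.1 FPKM over the tested genes of the set and 9.22 FPKM over all genes tested. The part of level in these shares was not tested. The median log2 change was 0.17 over the 28 genes and -0.0047 over all genes tested. Among the genes that rose the median was 0.33 in the set and 0.42 over all genes. HMGCS1 was 1.51-fold higher and the other 12 rises were under 1.5-fold, down to 1.13-fold. In bulk RNA, a change in every cell, a change in part of the cells and a change in RNA per cell cannot be told apart.

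**Figure D1:**
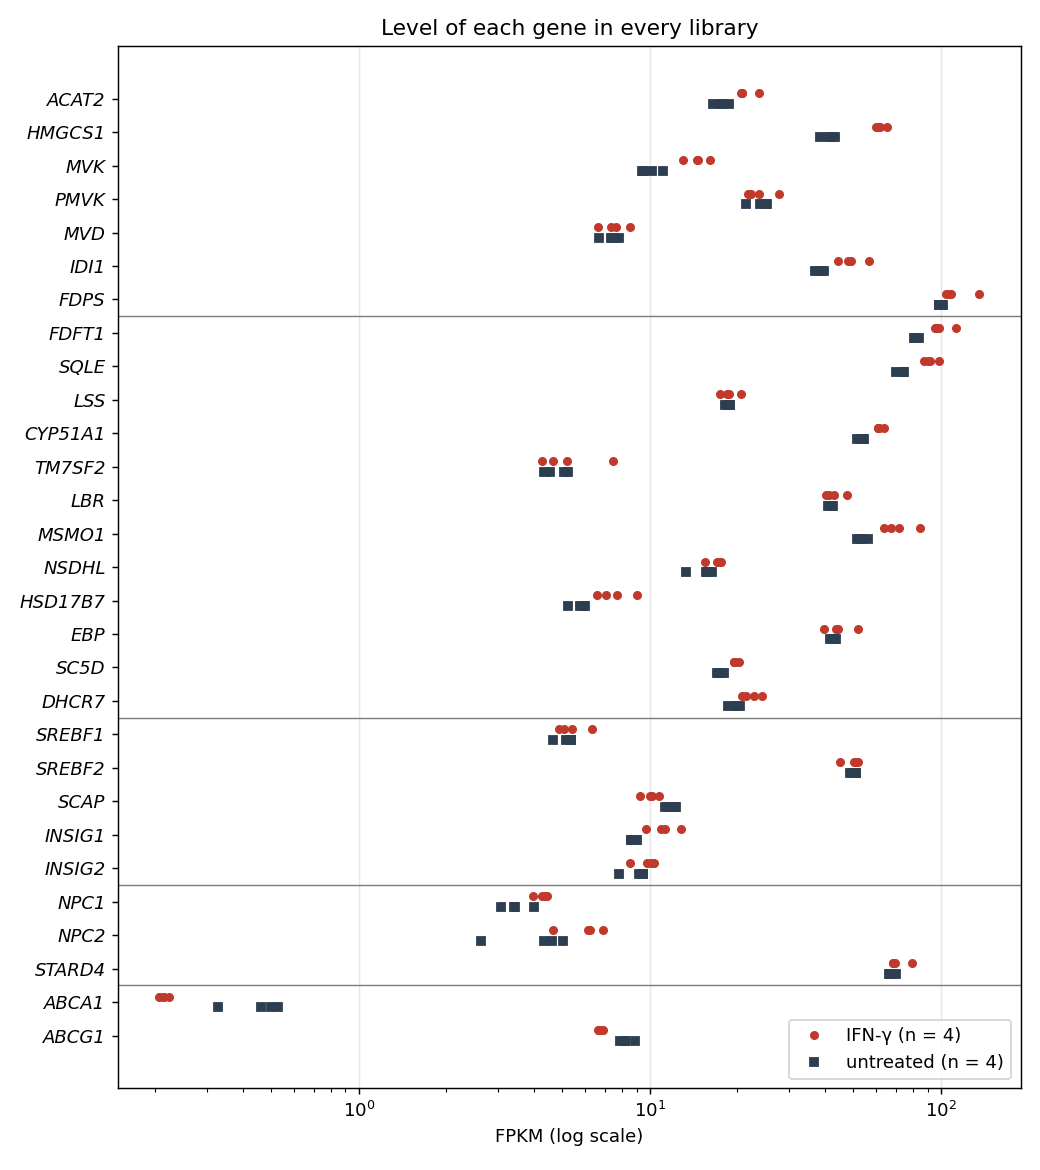
FPKM (log axis) of 29 of the genes in each library, IFN-γ as red circles above untreated as dark squares, ordered by role with lines between the roles; CH25H, listed at 0 in 7 of 8 libraries, is not drawn. FDPS and FDFT1 lie at the top of the range and ABCA1 at the bottom, and the red points lie right of the dark ones without overlap in 13 rows.

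The summed level of the 19 synthesis enzymes was 760.3, 764.3, 778.5 and 887.0 FPKM with IFN-γ, against 663.9, 661.5, 665.7 and 674.6 FPKM in untreated cells. The groups did not overlap. IFN-γ replicate 4 was the highest, and the untreated libraries lay closer together than the treated ones. Of these 19 enzymes 11 rose, 0 fell and 8 did not pass in limma. At an unadjusted p under 0.05 the counts were 12 higher and 0 lower. Without IFN-γ replicate 4, 12 rose and 0 fell.

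The mevalonate arm carries acetyl-CoA to farnesyl pyrophosphate, and 4 of its 7 enzymes rose. HMGCS1, which joins acetoacetyl-CoA and acetyl-CoA to HMG-CoA, was at 59.9, 61.5, 61.8 and 65.3 FPKM with IFN-γ and at 38.4, 41.1, 43.1 and 42.1 FPKM in untreated cells. Every treated library lay above every untreated one, with the largest rise among the genes that passed (log2 change 0.59, SE 0.05, limma adjusted p = 5.8e-06). MVK, mevalonate kinase, was at 13.0, 14.5, 16.1 and 14.6 FPKM with IFN-γ, against 9.40, 10.2, 9.46 and 11.1 FPKM untreated. It rose by a log2 change of 0.53 (SE 0.08, limma adjusted p = 5.8e-04), again without overlap. MVK shares 306 exonic bases with MMAB on the other strand, which averaged 5.43 FPKM with IFN-γ and 5.2 FPKM untreated.

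IDI1, the isomerase that makes dimethylallyl pyrophosphate, was at 44.4, 49.1, 48.1 and 56.6 FPKM with IFN-γ and at 38.3, 39.7, 36.8 and 38.8 FPKM untreated (log2 change 0.36, SE 0.07, limma adjusted p = 0.0031). ACAT2, the cytosolic acetoacetyl-CoA thiolase, was at 20.8, 20.5, 20.6 and 23.6 FPKM with IFN-γ, against 16.5, 18.7, 17.9 and 17.6 FPKM untreated (log2 change 0.27, SE 0.06, limma adjusted p = 0.0072). The groups of both genes were apart. IDI1 shares 643 exonic bases with IDI2-AS1 on the other strand, which averaged 3.26 FPKM with IFN-γ and 2.82 FPKM untreated. The library kit does not mark strand, and 1141 exonic bases of ACAT2 overlap SOD2, the mitochondrial superoxide dismutase gene on the opposite strand. SOD2 averaged 25.2 ± 0.674 FPKM with IFN-γ and 16.3 ± 1.78 FPKM untreated (SD, n = 4 each), and ACAT2 also shares 397 exonic bases with TCP1, a chaperonin subunit gene on that strand, which averaged 85.2 FPKM with IFN-γ and 78.2 FPKM untreated. The part of fragments of SOD2 and TCP1 in the ACAT2 value was not tested, nor was that of the other overlaps given here. Without ACAT2 the enzyme sums were still apart, at 739.5 to 863.3 FPKM with IFN-γ and 642.8 to 657.0 FPKM untreated.

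The 3 remaining enzymes of this arm did not pass. FDPS, farnesyl pyrophosphate synthase and the most abundant gene of the set, was at 107, 108, 104 and 136 FPKM with IFN-γ and at 102, 98.2, 98.8 and 101 FPKM untreated. The groups did not overlap, but IFN-γ replicate 4 widened the spread (log2 change 0.18, SE 0.08, limma adjusted p = 0.13). Without that library the FDPS change was 0.09 and passed (limma adjusted p = 0.017). PMVK, phosphomevalonate kinase, averaged 23.9 ± 2.73 FPKM with IFN-γ and 23.9 ± 1.73 FPKM untreated, with a 95% interval of the log2 change from -0.19 to 0.18. MVD, the mevalonate pyrophosphate decarboxylase, averaged 7.55 ± 0.811 FPKM with IFN-γ and 7.36 ± 0.481 FPKM untreated, with an interval from -0.15 to 0.22. Both intervals reach above 0.17, the smallest log2 change that passed in the set, so PMVK and MVD are not shown to be steady.

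From squalene to cholesterol, 7 of 12 enzymes rose and none fell. FDFT1, squalene synthase, was at 95.8, 96.0, 98.8 and 113 FPKM with IFN-γ, against 82.1, 81.4, 80.9 and 84.0 FPKM untreated (log2 change 0.29, SE 0.05, limma adjusted p = 0.0029). SQLE, squalene epoxidase, was at 87.5, 90.4, 91.4 and 98.2 FPKM with IFN-γ and at 73.8, 70.2, 73.9 and 74.6 FPKM untreated (log2 change 0.33, SE 0.04, limma adjusted p = 3.3e-04). Both committed enzymes were among the most abundant of the set and their groups were apart. With quantile normalization their log2 changes were 0.16 and 0.20, and both still passed.

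Both enzymes that oxidize the extra methyl groups of lanosterol rose. MSMO1, the C4 methylsterol oxidase, was at 72.0, 63.5, 67.6 and 84.8 FPKM with IFN-γ, against 53.2, 52.8, 51.6 and 56.1 FPKM untreated (log2 change 0.42, SE 0.08, limma adjusted p = 0.0032). CYP51A1, the lanosterol 14α-demethylase, was at 61.1, 60.8, 61.0 and 63.7 FPKM with IFN-γ and at 51.7, 54.4, 54.1 and 53.2 FPKM untreated (log2 change 0.21, SE 0.03, limma adjusted p = 0.0015). The treated libraries lay above the untreated ones in both genes. CYP51A1 shares 138 exonic bases with CYP51A1-AS1 on the other strand, which averaged 0.288 FPKM with IFN-γ and 0.372 FPKM untreated. The CYP51A1 change was smaller when the values were rescaled to TPM (each gene's share of all length-scaled values) without short RNA genes, at 0.12, and did not pass there (limma adjusted p = 0.0955).

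Further along, HSD17B7, a 3-keto sterol reductase, was at 6.59, 7.04, 7.68 and 9.0 FPKM with IFN-γ, against 5.21, 5.96, 5.98 and 5.76 FPKM untreated (log2 change 0.39, SE 0.10, limma adjusted p = 0.015). Its level is uncertain because a pseudogene, HSD17B7P2, shares sequence with it; that entry averaged 1.01 FPKM with IFN-γ and 0.896 FPKM untreated. SC5D, the lathosterol oxidase, averaged 19.7 ± 0.345 FPKM with IFN-γ and 17.4 ± 0.459 FPKM untreated, and DHCR7, the 7-dehydrocholesterol reductase, 22.3 ± 1.6 FPKM with IFN-γ and 19.6 ± 0.758 FPKM untreated (SD, n = 4 each). These are the smallest rises of the set, with log2 changes of 0.17 and 0.19 (limma adjusted p = 0.0087 and 0.038), and the groups of each were apart. SC5D did not pass in TPM without short RNA genes (log2 change 0.08, adjusted p = 0.33). DHCR7 lost its call without IFN-γ replicate 3 or any 1 of the 4 untreated libraries (limma adjusted p = 0.052 to 0.11) and ranged in adjusted p over the alternatives between 0.026 and 0.22.

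The other 5 enzymes of this stretch did not pass. LSS, lanosterol synthase, lay between SQLE and CYP51A1 in the pathway and below both in level, at 18.7, 18.3, 20.6 and 17.4 FPKM with IFN-γ and 18.6, 18.1, 18.8 and 18.8 FPKM untreated. Its groups overlapped, with a 95% interval of the log2 change from -0.11 to 0.13 (limma adjusted p = 0.90). Both sterol C14 reductases overlapped too. TM7SF2 averaged 5.40 ± 1.44 FPKM with IFN-γ and 4.79 ± 0.441 FPKM untreated, and LBR, which is also a protein of the inner nuclear membrane, 43.0 ± 3.22 FPKM with IFN-γ and 41.8 ± 0.725 FPKM untreated. NSDHL, the C4 decarboxylase, averaged 16.8 ± 0.947 FPKM with IFN-γ and 15.3 ± 1.33 FPKM untreated, and EBP, the sterol isomerase, 44.8 ± 5.12 FPKM with IFN-γ and 42.8 ± 0.817 FPKM untreated. The upper ends of the 95% intervals of these 4 log2 changes were 0.15 for LBR, 0.22 for EBP, 0.30 for NSDHL and 0.49 for TM7SF2.

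**Figure D2:**
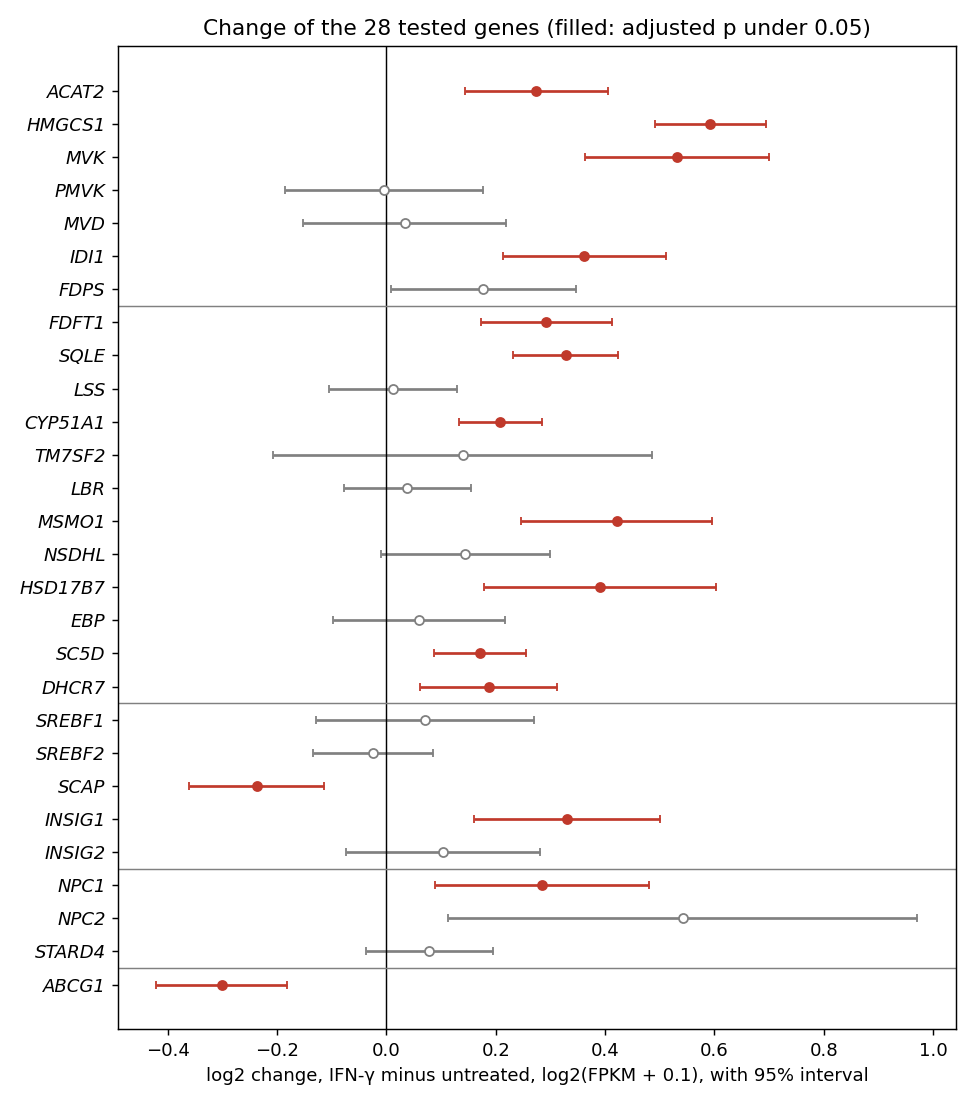
Log2 change with its 95% interval (IFN-γ minus untreated, limma) for the 28 tested genes in order of role; filled red points passed an adjusted p of 0.05 and open grey points did not. HMGCS1 (0.59) and MVK (0.53) lie farthest right among the filled points, and SCAP (-0.24) and ABCG1 (-0.30) are the filled points left of 0.

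Promoters of 4 of the genes that rose are shown to set the changes beside the sequence in front of each gene. Each window runs from 250 bases before to 50 bases after an annotated start, on the gene's own strand, from RefSeq on GRCh38.p14: HMGCS1 at chr5:43313363-43313662 (minus strand, 1 of 2 annotated starts), MSMO1 at chr4:165327419-165327718 (plus), INSIG1 at chr7:155297628-155297927 (plus) and IDI1 at chr10:1048837-1049136 (minus, 1 of 3 annotated starts). Capitals mark matches to CCAAT on either strand, the letters bound by NF-Y, a factor that acts beside SREBP at sterol-responsive promoters.
HMGCS1: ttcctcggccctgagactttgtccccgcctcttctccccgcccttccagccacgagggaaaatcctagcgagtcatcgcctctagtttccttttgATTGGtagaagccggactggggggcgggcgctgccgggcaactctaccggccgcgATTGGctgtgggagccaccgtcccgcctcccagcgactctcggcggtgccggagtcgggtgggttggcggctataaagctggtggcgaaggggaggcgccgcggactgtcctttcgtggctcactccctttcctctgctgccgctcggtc
MSMO1: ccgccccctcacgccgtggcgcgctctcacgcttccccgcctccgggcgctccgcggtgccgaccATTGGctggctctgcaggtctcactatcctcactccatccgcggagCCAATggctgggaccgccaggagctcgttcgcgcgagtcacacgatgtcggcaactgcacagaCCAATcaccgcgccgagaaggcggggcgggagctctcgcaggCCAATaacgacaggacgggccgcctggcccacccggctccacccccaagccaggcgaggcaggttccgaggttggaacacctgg
INSIG1: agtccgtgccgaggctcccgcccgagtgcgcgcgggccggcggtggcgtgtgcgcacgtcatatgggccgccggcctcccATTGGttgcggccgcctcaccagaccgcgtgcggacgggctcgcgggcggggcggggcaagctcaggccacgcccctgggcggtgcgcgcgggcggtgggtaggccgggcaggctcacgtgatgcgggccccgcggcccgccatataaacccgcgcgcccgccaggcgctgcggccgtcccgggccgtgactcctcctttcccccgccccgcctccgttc
IDI1: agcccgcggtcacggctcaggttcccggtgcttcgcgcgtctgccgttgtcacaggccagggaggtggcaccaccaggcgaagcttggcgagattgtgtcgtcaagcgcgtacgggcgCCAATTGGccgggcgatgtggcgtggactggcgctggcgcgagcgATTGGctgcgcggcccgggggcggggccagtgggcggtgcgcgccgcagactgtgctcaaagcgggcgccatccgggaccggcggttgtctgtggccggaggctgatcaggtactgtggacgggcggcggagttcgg

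All 4 printed windows hold CCAAT, but they were picked by hand, so that count is not a result about the genes that rose. The other HMGCS1 window held none, nor did the IDI1 window at chr10:1056655-1056954. Relative to the start, the HMGCS1 matches begin at -155 and -100, and in the IDI1 window matches on both strands overlap at -132 and -129. Windows were held for 26 of the 30 genes, 33 windows in all. CCAAT was found in 57.6% of these 33 windows and in 34.6% of all 35116 windows of the same length. 8 of the 10 genes that rose and had a window held it, as did 17 of the 26 genes. These gene counts take a match in any window of a gene, so they are not comparable with the shares per window. CYP51A1 and NPC1 rose and held no CCAAT in their windows. TCACNCCAC, the letters of a classical sterol regulatory element, matched 1 of the 33 windows, that of SREBF2, where TCACCCCAC begins at -133, and 1.13% of all windows. TTCNNNGAA, the letters of a γ-activated site, and GAAA, any 2 bases and GAAA, the letters of an interferon-stimulated response element, matched 0 of the 33 windows and 7.66% and 3.57% of all windows. No other motif overlapped a CCAAT match in the printed windows. Matches are a description of these letters and not of binding.

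Among the 5 regulators of SREBP, INSIG1 rose, SCAP fell, and INSIG2 and the genes of both transcription factors did not pass. INSIG1, which retains SCAP in the endoplasmic reticulum and is itself a target of SREBP, was at 9.71, 11.3, 10.9 and 12.8 FPKM with IFN-γ, against 8.98, 8.63, 9.07 and 8.63 FPKM untreated. The groups were apart (log2 change 0.33, SE 0.08, limma adjusted p = 0.011). SCAP was at 10.2, 10.1, 10.7 and 9.28 FPKM with IFN-γ and at 12.2, 12.3, 11.7 and 11.3 FPKM untreated. Every treated library lay below every untreated one (log2 change -0.24, SE 0.06, limma adjusted p = 0.012).

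SREBF2, the gene of SREBP-2, was at 50.2, 51.1, 51.9 and 44.9 FPKM with IFN-γ, against 48.6, 51.0, 50.4 and 51.1 FPKM untreated. The groups overlapped, and the 95% interval of the log2 change ran from -0.13 to 0.09 (limma adjusted p = 0.77). SREBF1, whose products act mainly on fatty acid genes, averaged 5.41 ± 0.641 FPKM with IFN-γ and 5.13 ± 0.329 FPKM untreated, so SREBF2 was the more abundant of the pair in both groups. SREBF1 shares 556 exonic bases with RAI1 on the other strand, which averaged 7.8 FPKM with IFN-γ and 9.44 FPKM untreated. INSIG2, the paralog of INSIG1, averaged 9.67 ± 0.781 FPKM with IFN-γ and 9.0 ± 0.770 FPKM untreated and did not pass (log2 change 0.10, interval -0.07 to 0.28). Whether INSIG1 and INSIG2 differed in their change was not tested.

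**Figure D3:**
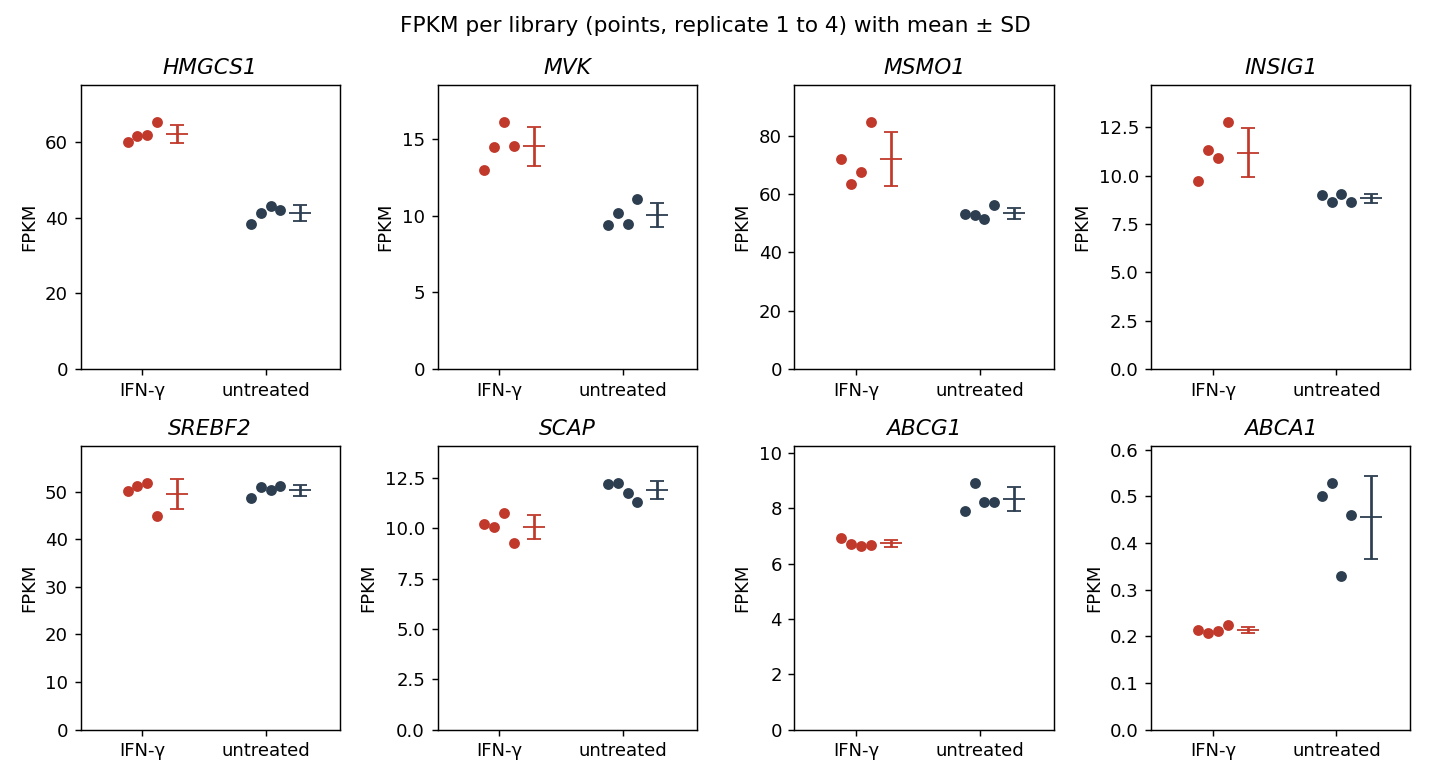
FPKM of 8 genes by library, IFN-γ left and untreated right, with points for replicates 1 to 4 and mean ± SD beside them on axes that start at 0. The groups are apart in every panel but that of SREBF2, with IFN-γ above untreated in HMGCS1, MVK, MSMO1 and INSIG1 and below in SCAP, ABCG1 and ABCA1.

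Genes that move sterols between membranes changed less clearly. NPC1, the membrane protein that carries cholesterol out of late endosomes, was at 4.25, 4.36, 4.43 and 3.96 FPKM with IFN-γ and at 3.08, 3.42, 3.45 and 3.99 FPKM untreated. Untreated replicate 4 overlapped the treated group. NPC1 passed (log2 change 0.28, SE 0.09, limma adjusted p = 0.042) but lost its call without any 1 of IFN-γ replicates 1 to 3 or untreated replicates 1 to 3 (limma adjusted p = 0.084 to 0.11). Without the filter on low values NPC1 had adjusted p = 0.065, and over all alternatives the range was 0.018 to 0.25.

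NPC2, the soluble endosomal partner of NPC1, was at 6.21, 4.66, 6.13 and 6.91 FPKM with IFN-γ, against 5.02, 4.32, 2.63 and 4.62 FPKM untreated. The groups overlapped and the NPC2 change of 0.54 had an SE of 0.19 (limma adjusted p = 0.072). It passed without IFN-γ replicate 2 (limma adjusted p = 0.046). NPC2 shares 103 exonic bases with ISCA2 on the other strand, which averaged 8.89 FPKM with IFN-γ and 7.0 FPKM untreated. STARD4, a cytosolic sterol carrier and the most abundant gene outside the synthesis enzymes, was at 68.7, 69.8, 68.4 and 79.4 FPKM with IFN-γ and at 66.7, 67.3, 66.4 and 70.1 FPKM untreated. It did not pass, with a 95% interval of the log2 change from -0.04 to 0.19. STARD4 shares 124 exonic bases with STARD4-AS1 on the other strand, which averaged 14.6 FPKM with IFN-γ and 11.5 FPKM untreated.

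Both exporters were lower with IFN-γ. ABCG1, which passes sterol to high-density lipoprotein, was at 6.92, 6.69, 6.65 and 6.66 FPKM with IFN-γ and at 7.90, 8.92, 8.23 and 8.23 FPKM untreated. The groups were apart and ABCG1 fell by 0.30 on the log2 scale (SE 0.05, limma adjusted p = 0.0025). ABCA1, which loads lipid onto apolipoprotein A-I, was at 0.214, 0.206, 0.212 and 0.224 FPKM with IFN-γ, against 0.501, 0.529, 0.330 and 0.460 FPKM untreated. All treated libraries lay below all untreated ones, at 0.470 of their mean. ABCA1 averaged under the minimum of 0.5 FPKM, so it was not among the 28 genes tested. An exact permutation test (two-sided) can only restate this: with groups apart its p is fixed at 0.0286, the lowest value possible with 70 arrangements. With no filter ABCA1 passed in limma (log2 change -0.81, SE 0.17, adjusted p = 0.011). By the longest transcript, its values stand for about 30 to 47.4 fragments with IFN-γ and 55.4 to 106 fragments untreated, so the low level limits the precision.

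CH25H makes 25-hydroxycholesterol, an oxysterol that blocks SREBP processing, and is an interferon-induced gene in macrophages. Here it was listed at 0 FPKM in 7 of 8 libraries and at 0.0787 FPKM in IFN-γ replicate 4, about 2.68 fragments. No change could be detected at this depth, and CH25H was too low to be tested.

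Over the 28 tested genes, groups were apart in 15, with IFN-γ above in 13 and below in 2. Over all genes tested, IFN-γ lay above in 15.4% and below in 12.9%. IFN-γ replicate 4 was the highest IFN-γ library in 75.0% of the 28 genes and in 36.9% of all genes tested, and in 11 of the 13 genes that rose. Without it, 14 of the 28 genes rose and 2 fell, and the median log2 change was 0.13. The calls over all genes were then 2157 higher (15.8%) and 1698 lower (12.5%). None of the 15 called genes changed direction under any of the 18 other settings tried. The number that rose lay between 9, in TPM without short RNA genes, and 14.

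**Figure D4:**
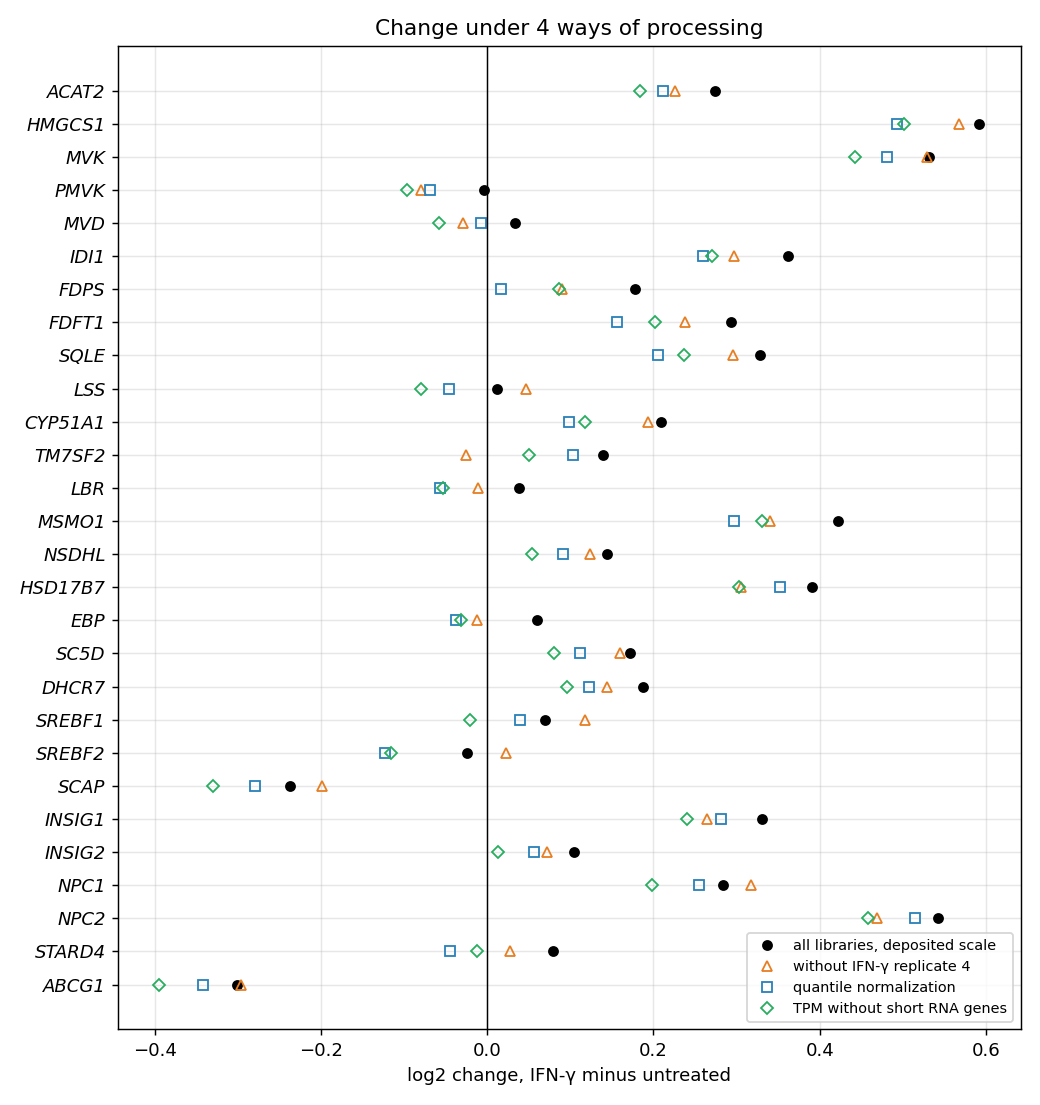
Log2 change (IFN-γ minus untreated) of the 28 tested genes with all libraries on the deposited scale (black circles), without IFN-γ replicate 4 (orange triangles), after quantile normalization (blue squares) and in TPM without short RNA genes (green diamonds). Most genes move left under the other settings, and HMGCS1, MVK, SCAP and ABCG1 stay on their side of 0.

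Around the set, 100 further genes that act beside these were examined, and 87 were high enough to be tested. Of these 17 rose and 6 fell, 19.5% and 6.9% of those tested, where 13.3% and 9.05% of all genes tested did. The median log2 change was -0.0025. The counts of the single lists below stand against the same 13.3% and 9.05%, and in lists this short each call moves the share widely. The counts depended on the scaling used. Median-of-ratios scaling kept 17 higher and 6 lower. Quantile normalization gave 10 higher and 14 lower, and TPM without short RNA genes 7 higher and 10 lower. Without untreated replicate 1 or 4, 10 and 11 rose. Without IFN-γ replicate 4, 10 fell, and without untreated replicate 2 or 3, 3 and 2 fell.

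Of 14 proteases and degradation factors of the SREBP system 2 rose and 0 fell, with a median log2 change of -0.0065. VCP, the segregase that extracts proteins from the endoplasmic reticulum, averaged 99.8 ± 2.83 FPKM with IFN-γ and 90.6 ± 1.78 FPKM untreated (limma adjusted p = 0.018), and PAQR3, which tethers SCAP to the Golgi, 18.1 ± 0.846 FPKM with IFN-γ and 16.2 ± 0.631 FPKM untreated (limma adjusted p = 0.037). Neither passed with quantile normalization or in TPM without short RNA genes, and over all alternatives their highest adjusted p was 0.996 for VCP and 0.41 for PAQR3. VCP also lost its call without IFN-γ replicate 3 or untreated replicate 3 or 4, and PAQR3 without IFN-γ replicate 2 or 3 or untreated replicate 1, 2 or 3.

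Among 10 tested genes of the LXR receptors, their partners and targets, 2 rose and none fell, with a median log2 change of -0.01. SCD, the stearoyl-CoA desaturase, which also belongs to fatty acid synthesis, averaged 211 ± 4.93 FPKM with IFN-γ and 179 ± 4.47 FPKM untreated (limma adjusted p = 0.0013). SCD did not pass with quantile normalization (adjusted p = 0.23) or in TPM without short RNA genes (adjusted p = 0.069).

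Of 16 tested genes of fatty acid synthesis and desaturation 5 rose and 1 fell, with a median log2 change of 0.03. LPIN1, a phosphatidate phosphatase, averaged 48.1 ± 0.866 FPKM with IFN-γ and 32.8 ± 1.11 FPKM untreated (log2 change 0.55, limma adjusted p = 1.9e-06). FADS2, the delta-6 desaturase, averaged 80.6 ± 2.67 FPKM with IFN-γ and 64.1 ± 0.652 FPKM untreated (limma adjusted p = 7.6e-05). GPAM, which begins glycerolipid synthesis, fell to 24.3 ± 0.468 FPKM with IFN-γ, against 28.7 ± 0.571 FPKM untreated (limma adjusted p = 7.9e-04).

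In the non-sterol branch that makes prenyl groups, dolichol and ubiquinone, 1 of 15 genes rose and 0 fell in limma, with a median log2 change of 0.0085. At an unadjusted p under 0.05 the counts were 2 higher and 2 lower, again without a share over all genes. FNTA, the shared α subunit of protein prenyltransferases, averaged 36.0 ± 2.90 FPKM with IFN-γ and 31.3 ± 0.769 FPKM untreated (limma adjusted p = 0.028, 0.0082 to 0.12 with other settings). FNTA lost its call without IFN-γ replicate 1 or untreated replicate 1, 3 or 4. RABGGTB, a subunit of the Rab prenyltransferase, averaged 82.1 ± 10.9 FPKM with IFN-γ and 79.1 ± 1.59 FPKM untreated. NUS1, a subunit of the dolichol-making prenyltransferase, averaged 35.7 ± 1.44 FPKM with IFN-γ and 34.9 ± 0.911 FPKM untreated, and neither gene passed.

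Lipoprotein receptors and adaptors gave 2 rises and 1 fall in 7 tested genes, 28.6% and 14.3% of them where all genes gave 13.3% and 9.05%, with a median log2 change of -0.11. VLDLR, a receptor of apolipoprotein E-rich particles and of reelin, was at 14.3, 13.6, 14.6 and 15.8 FPKM with IFN-γ and at 15.8, 16.9, 17.3 and 18.4 FPKM untreated, with an overlap at 1 library a group (limma adjusted p = 0.022). SNX17, a sorting adaptor, averaged 27.8 ± 3.15 FPKM with IFN-γ and 23.7 ± 0.514 FPKM untreated, and SCARB2, a lysosomal membrane protein that can move cholesterol, 73.2 ± 3.55 FPKM with IFN-γ and 66.4 ± 1.30 FPKM untreated. Each of these 3 calls was lost when certain libraries were left out: IFN-γ replicate 1 or 2 or untreated replicate 2, 3 or 4 for VLDLR, IFN-γ replicate 3 or any untreated library for SNX17, and IFN-γ replicate 1 or any untreated library for SCARB2. Over all alternatives the highest adjusted p was 0.067 for VLDLR, 0.11 for SNX17 and 0.73 for SCARB2.

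Among 19 tested genes of sterol esterification, hydrolysis and transfer 5 rose and 2 fell, with a median log2 change of 0.06. SOAT1, which esterifies cholesterol for storage, was at 13.8, 13.7, 13.4 and 13.1 FPKM with IFN-γ and at 10.2, 10.6, 10.9 and 10.8 FPKM untreated (log2 change 0.34, SE 0.04, limma adjusted p = 2.6e-04). The groups were apart, and SOAT1 passed under every alternative tried. TSPO, a mitochondrial outer membrane protein, averaged 54.4 ± 12.2 FPKM with IFN-γ and 39.9 ± 1.68 FPKM untreated, with IFN-γ replicate 4 at 72.2 FPKM. GRAMD1B, a sterol transfer protein of endoplasmic reticulum contacts, averaged 5.36 ± 0.562 FPKM with IFN-γ and 4.21 ± 0.206 FPKM untreated. OSBPL10, an oxysterol-binding protein relative, averaged 0.779 ± 0.184 FPKM with IFN-γ and 1.24 ± 0.031 FPKM untreated. TSPO lost its call without IFN-γ replicate 3 or any untreated library (highest adjusted p = 0.084), GRAMD1B without IFN-γ replicate 2 or 3 or untreated replicate 1 (0.056), and OSBPL10 without IFN-γ replicate 3 or untreated replicate 2 or 3 (0.060). In TPM without short RNA genes GRAMD1B had adjusted p = 0.18.

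Of 3 tested sterol hydroxylases and oxysterol enzymes outside the set 0 passed in limma, and 0 had an unadjusted p under 0.05. CYP7B1 averaged 10.0 ± 1.40 FPKM with IFN-γ and 11.3 ± 0.906 FPKM untreated, and CYP27A1 1.07 ± 0.0602 FPKM with IFN-γ and 1.02 ± 0.108 FPKM untreated. Among 4 tested ABC transporters of lipids outside the set, 1 rose and 2 fell, with a median log2 change of -0.19. ABCA2, abundant in brain and linked to sterol trafficking, averaged 6.47 ± 0.859 FPKM with IFN-γ and 8.75 ± 0.663 FPKM untreated (limma adjusted p = 0.010). ABCA5 averaged 2.63 ± 0.215 FPKM with IFN-γ and 3.36 ± 0.174 FPKM untreated (limma adjusted p = 0.017), a call lost without untreated replicate 3 (adjusted p = 0.054).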

How the data were processed

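RNA of BE(2)-M17 cells was sequenced after ribosomal RNA depletion, per the labels' protocols, as pairs of 150 nt from unstranded libraries. The deposited values are FPKM per gene and library. The short RNA gene SNORD3A made up 53.2, 57.9, 5.97 and 55.7% of the summed FPKM in untreated replicates 1 to 4, and 0% in each IFN-γ library. Its part in the results was not tested. The median FPKM of the genes tested was 9.14 to 9.28 in IFN-γ libraries and 8.93 to 8.98 in untreated ones. Per the submitters' processing notes TopHat2, Cuffdiff and hg38 were used; no version, annotation or library scaling is named there (not given in the sources used here). No counts were given, so no count model was used. Groups (IFN-γ and untreated, 4 libraries each) follow the treatment in the labels. Genes averaging 0.5 FPKM or more (13598) were compared by limma 3.58.1 with a mean-variance trend (R 4.3.3) on log2(FPKM + 0.1), which understates changes of low genes, two-sided, at a Benjamini-Hochberg adjusted p of 0.05 over all genes tested. The fit was tested on simulated data.

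The genes and lists were chosen with earlier results of these data known. Named genes were all 30 of the set and, per neighbouring list, up to 4 called genes with the largest change, or the 2 most abundant where fewer than 2 were called; 2 listed symbols were newer names of genes already listed. Some genes of the pathway and of the lists are not reported here. Depth is approximate and rests on the value of 1 fragment in 17 of 43 candidate genes with 1 transcript. No pair of libraries differed by less than counting noise. Positions and exon overlaps came from GENCODE release 29 and promoter windows from RefSeq, both on GRCh38. Alternatives were other pseudocounts (1 or 0.01), no filter, a 1 FPKM filter, 3 scalings, limma without trend or robust, the replicate block and each library left out.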

Additional observations from a re-analysis of the deposited data

Results flagged for a closer look

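Among 108 groups of 4 libraries, 6 had a library far from the other 3, where chance flags about 1 group in 20. The untreated CH25H group, listed at 0 throughout, could not be checked. In 5 of the 6 the library was IFN-γ replicate 4, each time the highest: ACAT2 at 23.6 FPKM against a next value of 20.8 FPKM, FDPS at 135.7 against 108.1 FPKM, CYP51A1 at 63.7 against 61.1 FPKM, STARD4 at 79.4 against 69.8 FPKM, and CH25H at 0.0787 FPKM where the other 3 were listed at 0. With 3 values at 0 any nonzero value is flagged, so the CH25H flag carries no weight. The sixth was ABCG1 in IFN-γ replicate 1, at 6.92 FPKM against 6.69 FPKM.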

How the results depend on the processing

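Of 900 values for 50 named genes under 18 alternatives, 787 kept direction and side of the threshold, 80 lost and 2 gained a call, and 31 changed sign. Low genes such as ABCA1, CH25H and NPC2 are limited by depth, and no alternative can replace counts. Quantile normalization and TPM without short RNA genes moved the counts most, and the cause was not tested. The median log2 change of all genes was -0.0047 as deposited, -0.0711 with quantile normalization and -0.0983 in TPM without short RNA genes. With median-of-ratios scaling it was -0.0076, with 1787 genes higher and 1256 lower, and 13 higher and 2 lower in the set. Quantile normalization gave 1470 genes higher and 2564 lower (36.4% of calls higher, against 59.5%), and TPM 1202 and 1759 (40.6%). For the neighbouring lists these scalings gave 10 and 7 higher and 14 and 10 lower. Leaving out 1 library gave 10 to 19 higher and 2 to 10 lower there.

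Every value that changed sign belonged to a gene that passed neither way. In quantile normalization and in TPM, in that order, log2 changes were -0.0071 and -0.0577 for MVD, -0.046 and -0.0793 for LSS, -0.0572 and -0.053 for LBR, -0.0374 and -0.0315 for EBP, -0.0444 and -0.0128 for STARD4, -0.0887 and -0.0481 for RABGGTB, -0.0616 and -0.0593 for NUS1, and -0.0062 and -0.0216 for CYP27A1. SREBF1 was at -0.0205 in TPM. With each library left out in turn the ranges were -0.0796 to 0.0378 for PMVK, -0.0288 to 0.0941 for MVD, -0.0335 to 0.0468 for LSS, -0.026 to 0.2392 for TM7SF2, -0.0106 to 0.0691 for LBR, -0.0118 to 0.118 for EBP, -0.0055 to 0.1176 for SREBF1, -0.0472 to 0.022 for SREBF2, -0.0366 to 0.0962 for RABGGTB and -0.0077 to 0.0981 for CYP27A1.

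Replicate numbers are shared between the groups. The deviations of same-numbered libraries had r of -0.027, 0.079, 0.061 and 0.061, and those of differently numbered libraries -0.094 to 0.086. Such r cannot show whether the numbers pair cultures or batches, and the main fit had no replicate block. With the replicate block 12 genes of the set rose and 2 fell, and over all genes 1639 rose and 1017 fell; NPC1 (adjusted p = 0.0894) and SNX17 (0.0545) lost their calls in limma.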
